A study of Drosophila melanogaster with 48 samples.

Results

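The genes described here are 18 protein-coding genes of Drosophila melanogaster that are known only by a CG number, the serial label that the fly genome annotation gives to predicted genes, and whose RNA level in the brain was lower on day 45 than on day 4 in every kind of sham fly. They were chosen by a rule on measured values. A gene had to have a symbol of CG and digits, a mean level of at least 5 CPM (the count scaled to the column total, per 1000000 counts) over the 24 sham libraries, and a log2 ratio of mean CPM on day 45 to day 4, with 0.5 added to both, of -0.585 or less in each of the 4 kinds of fly. Of 23932 features in the tables, 17869 were annotated genes, 6080 of those had a CG-numbered symbol, 2284 of these passed the level of 5 CPM, and 18 met the whole rule. The same rule turned upwards took 43 CG-numbered genes, and the rule without the demand on the symbol took another 56 of 5444 genes.

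The study sequenced RNA from dissected brains of flies from a cross of w1118 with nSyb-GAL4, labelled WT. Males (M), virgins (V), females mated with wildtype males (F) and females mated with SP0 males (SP), which lack sex peptide, the seminal protein that switches females to their post-mating state, were each given very mild head impacts on day 3 (D3Inj) or were placed in the same vials without impacts (sham). All groups share the cross, so the GAL4 driver is present in controls as well. Brains were taken on day 4, which is 1 day after injury, and on day 45, and each of the 16 groups has 3 libraries of 40 pooled flies. Column totals ran from 21495740 to 60637359 counts with a median of 35543946. For 47 of 48 tables the sample in the column header is not the one the deposit links to the table, and for 20 even the day differs; headers were used throughout. By the headers roX1, an RNA of male dosage compensation, was at 5336 CPM or more in every male library and at 59.3 CPM or less in every female library, while the links would put 20 libraries with the wrong sex. The headers of injured libraries say "young" and were read as D3Inj, which roX1 does not test.

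Because the rule used the sham libraries, the sham values below are a description, and the tests were made in the 24 D3Inj libraries, which the rule did not use. In dissected brains, fewer cells of a type and less RNA per cell cannot be told apart.

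A CG number stands where no mutant or protein study has given a gene a name, and what is known of such genes comes mostly from their sequence relatives. 7 of the 18 carry an older name of the form Dro and a number in the RefSeq annotation, against 11 of the other 2266 CG-numbered genes past the level of 5 CPM. The annotation does not spell out the Dro names, and they are read here, from general knowledge, as those of the fly genes related to ecdysteroid kinases, enzymes that in insects attach phosphate to ecdysteroids, the steroid hormones that time moulting. The fly family also holds CHKov1, CHKov2 and JhI-26, and many of its genes stand in tandem clusters and have been linked to handling of foreign compounds. For single fly members the substrate is mostly unknown. This family was picked out after the members were seen, so the shares are a description. No protein or promoter sequence table was used here, so members were grouped by their older names and their neighbours and not by sequence.

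In D3Inj brains the age fall was seen in flies that took no part in the choice. All 18 members were lower on day 45 in D3Inj males, in D3Inj wildtype-mated females and in D3Inj virgin females by edgeR's quasi-likelihood test at an adjusted p under 0.05. Of all 15640 features tested, 14.9% were called lower in males, 15.5% in wildtype-mated females and 12.8% in virgin females. In D3Inj SP0-mated females 14 of 18 were called lower, where 15.2% of all features were. The median log2 change of the members was -1.06 in males, -1.21 in wildtype-mated females, -1.26 in virgin females and -0.91 in SP0-mated females, where the median of all features was 0.01, -0.01, 0.01 and 0.01. With the 4 kinds averaged, all 18 were lower, against 27.1% of all features, with log2 changes from -2.19 (SE 0.24) for CG9512 to -0.84 for CG8861. In CG9512, CG13360 and CG9812 the day 4 libraries of sham and D3Inj flies split alike into high and low ones, as described below. For these genes the D3Inj calls are not independent of the sham values that chose them. Of the 56 genes of other symbols that met the same rule, 56, 55, 54 and 54 were lower in the 4 kinds of D3Inj fly in the same order.

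**Figure D1:**
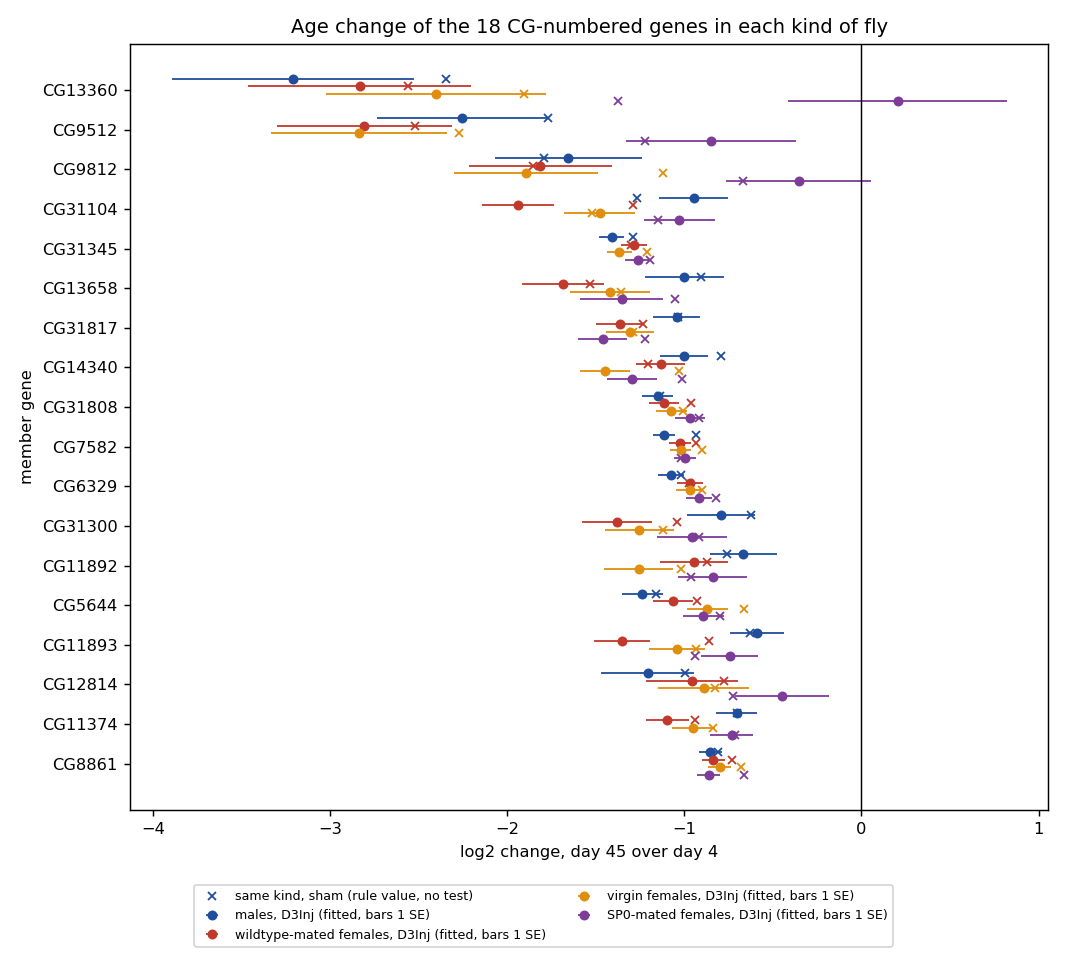
Log2 change from day 4 to day 45 for each of the 18 genes (rows, ordered by the mean sham ratio) in the 4 kinds of fly. Filled points are edgeR estimates in D3Inj libraries with bars of 1 SE (3 libraries per group), and crosses are the sham ratios that chose the genes, which are scaled by column totals and were not tested. All points lie left of 0 but CG13360 in SP0-mated D3Inj females, at 0.20.

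The groups can also be read library by library. All 3 day 45 libraries lay below all 3 day 4 libraries for 18 members in D3Inj males, for 17 in wildtype-mated females, for 17 in virgin females and for 16 in SP0-mated females. With the libraries of the 4 kinds pooled, every day 45 library lay below every day 4 library for 13 members. Of 7728 genes past the level of 5 CPM, 15.9%, 16.3%, 15.6% and 17.5% did so in the single kinds and 6.64% with the 4 kinds pooled.

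Over all genes the column totals and the TMM scaling of edgeR differ. The median change with age in sham flies over 8118 features past the level of 5 CPM was 0.12 on the log2 scale by column totals and 0.01 by TMM library sizes, so the rule understates falls relative to the bulk of genes. The median of the members was -0.98 by column totals and -1.09 by TMM. Marker lists moved with age as well. The summed level of 11 neuron markers had a median of 15717 CPM in sham day 4 libraries and 12698 CPM in sham day 45 libraries (ranges 15034 to 16528 and 12053 to 13711), and 9 of 11 were lower in all 4 kinds. The sum of 13 glia markers went from 5462 to 4393 CPM (5167 to 6378 and 4089 to 4960), with 6 of 13 lower and 6 higher in all 4 kinds, and elav, brp and repo were present in these lists above the level of 5 CPM. The sum of 9 hemocyte markers went from 1688 to 1329 CPM (1366 to 2114 and 1024 to 2032), with 5 of 9 lower and 3 higher in all 4 kinds. That of 11 fat body markers went from 5733 to 8893 CPM (1639 to 11966 and 2204 to 16861), with 3 of the 8 markers past the level of 5 CPM higher and 0 lower in all 4 kinds. That of 14 muscle markers went from 88.7 to 217.5 CPM (46.4 to 107.2 and 109.6 to 271.7), with 4 of the 5 past that level higher and 0 lower. Their part in the members' change was not tested.

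The 7 genes with Dro names make up the best defined group. 5 of them, CG11892 (Dro4-0), CG31300 (Dro5-1), CG31104 (Dro5-2), CG13658 (Dro5-5) and CG11893 (Dro5-6), lie side by side on the plus strand of chromosome arm 3R, bases 25281548 to 25291366 of dm6, a stretch of 9819 bases that holds no other annotated gene. They stand 248 to 958 bases apart, have 2 or 3 exons and code for 1248 to 1317 bases each. The stretch is part of a run of 28 Dro-named genes that spans bases 25268009 to 25331203 of 3R. Because these genes are copies of each other, reads that fit more than 1 of them could be split or dropped in the counting, and their single values are uncertain to that extent.

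In the D3Inj flies the 5 neighbours were all lower with age. Averaged over the 4 kinds the log2 change was -0.93 (SE 0.10) for CG11892, -1.10 (SE 0.10) for CG31300, -1.35 (SE 0.10) for CG31104, -1.37 (SE 0.11) for CG13658 and -0.93 (SE 0.08) for CG11893, all called by edgeR, with adjusted p from 8.23e-11 for CG11892 to 4.86e-15 for CG31104. The rest of the run was mixed. Any gene of the run that met the rule is a member, so the choice itself took falling genes out of the rest. Of the 23 other genes of the run 18 passed the low count filter, 4 were called lower and 8 higher, and their median log2 change was 0.10, where 27.1% of all features were called lower and 28.3% higher. CG31098, which starts 3 bases beyond CG11893 on the opposite strand, was lower by 0.65 (log2 change -0.65, SE 0.04, adjusted p = 2.19e-16 by edgeR), and CG10514 on the other flank was lower as well (log2 change -0.30, SE 0.12, adjusted p = 0.029). Further along, CG31097 was higher with age (log2 change 1.59, SE 0.16), as was CHKov1 (0.57, SE 0.06), a gene known for variants that affect resistance to sigma virus. CG10553 and CG10560 were lower in the mean of 4 kinds (-2.08, SE 0.31, and -1.76, SE 0.30). In SP0-mated females neither was called (0.05, SE 0.64, and 0.12, SE 0.63). CG10553 was outside the rule for its level of 3.50 CPM alone. CG10560, at 3.45 CPM, also missed the fall in SP0-mated sham flies (-0.36). Over the whole family 45 of 54 Dro-named genes were tested, of which 17 were lower and 12 higher. Without the members the counts were 10 and 12 of 38, shares near those of all features, but the members had been set apart for their fall.

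**Figure D2:**
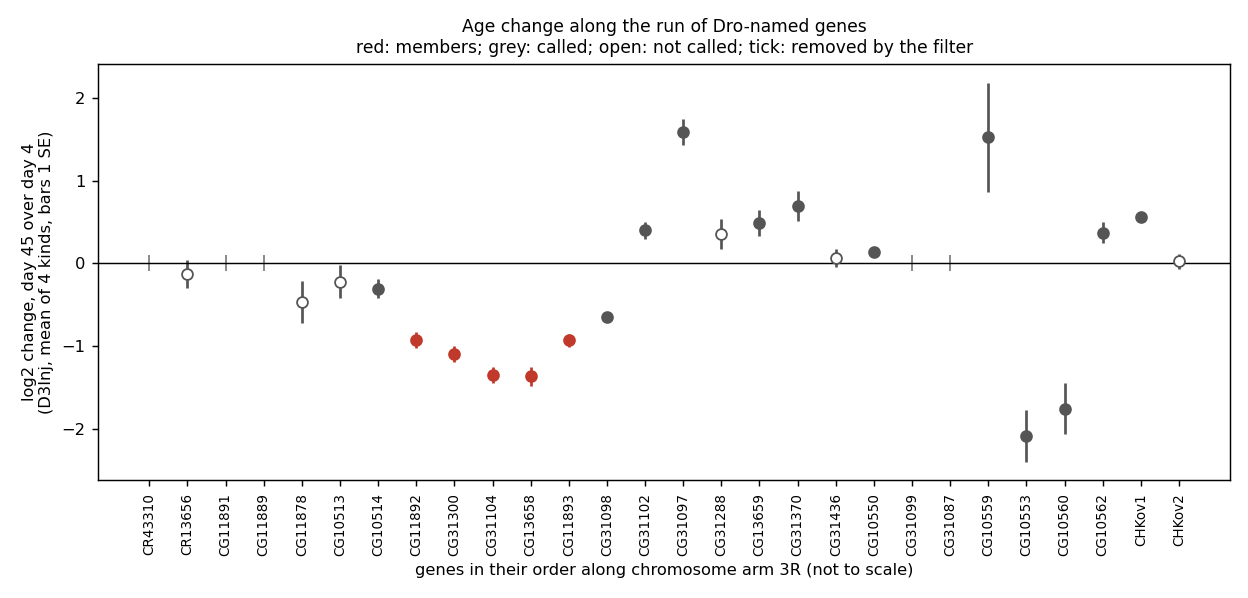
Log2 change from day 4 to day 45 in D3Inj flies, averaged over the 4 kinds, for the 28 Dro-named genes of the 3R run in chromosomal order (bars 1 SE from edgeR over 24 D3Inj libraries within the fit of 48). Red points are the 5 members, from -0.93 to -1.37, grey points are other genes called at an adjusted p under 0.05, open points were not called, and ticks mark genes removed by the low count filter.

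In sham flies the 5 genes were at 8.10 to 18.7 CPM on day 4 and at 2.95 to 9.85 CPM on day 45. Per kilobase of exon the day 4 level in sham flies was 11.7 CPM for CG11892, 8.80 for CG31300, 5.86 for CG31104, 7.21 for CG13658 and 12.3 for CG11893. Within the stretch, the outermost genes thus had the highest levels per length.

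The day 45 level of this stretch was higher in males than in females in the D3Inj libraries. For CG11892 the 3 male libraries were at 13.1, 13.4 and 13.7 CPM and the 9 female libraries ran from 6.20 through a median of 9.35 to 12.2 CPM. The ranges did not overlap. For CG31300 the males were at 7.48, 7.68 and 9.30 CPM and the females at 3.90 to 7.26 CPM with a median of 6.02, and for CG31104 the males were at 3.88, 4.01 and 4.28 CPM and the females at 1.52 to 3.69 CPM with a median of 2.76. Neither pair of ranges overlapped. For CG11893 the males were at 10.5, 13.1 and 14.2 CPM and the females at 6.03 to 10.8 CPM, so that 1 SP0-mated library lay above the lowest male library. By edgeR the log2 difference of males minus females on day 45 was 0.56 (SE 0.15, adjusted p = 0.0125) for CG11892, 0.50 (SE 0.16, adjusted p = 0.0339) for CG31300, 0.55 (SE 0.16, adjusted p = 0.0176) for CG31104 and 0.49 (SE 0.13, adjusted p = 0.00685) for CG11893. CG13658 had a like difference of 0.49 (SE 0.18) that did not pass (adjusted p = 0.0855). These calls rest on few male libraries. Without D3Inj male day 45 replicate 1 or without replicate 2 none of the 4 was called, with adjusted p from 0.051 to 0.11. Without replicate 3 CG31104 and CG31300 were lost, with adjusted p = 0.091 and 0.24, and CG31300 was also lost without any of 4 female libraries. The differences stayed between 0.40 and 0.67 whichever library was left out.

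On day 4 none of the 5 differed by sex at an adjusted p under 0.05. The difference between the sexes in the age change was 0.53 (SE 0.22) for CG31104 and 0.46 (SE 0.18) for CG11893, with adjusted p = 0.41 and 0.37, so a smaller fall in males was not established. In sham flies the day 45 values had the same order for some of them. CG31300 was at 8.59, 8.65 and 10.0 CPM in sham males and at 7.96 CPM or less in all 9 sham female libraries, whereas CG11892, CG31104, CG13658 and CG11893 overlapped between the sexes.

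**Figure D3:**
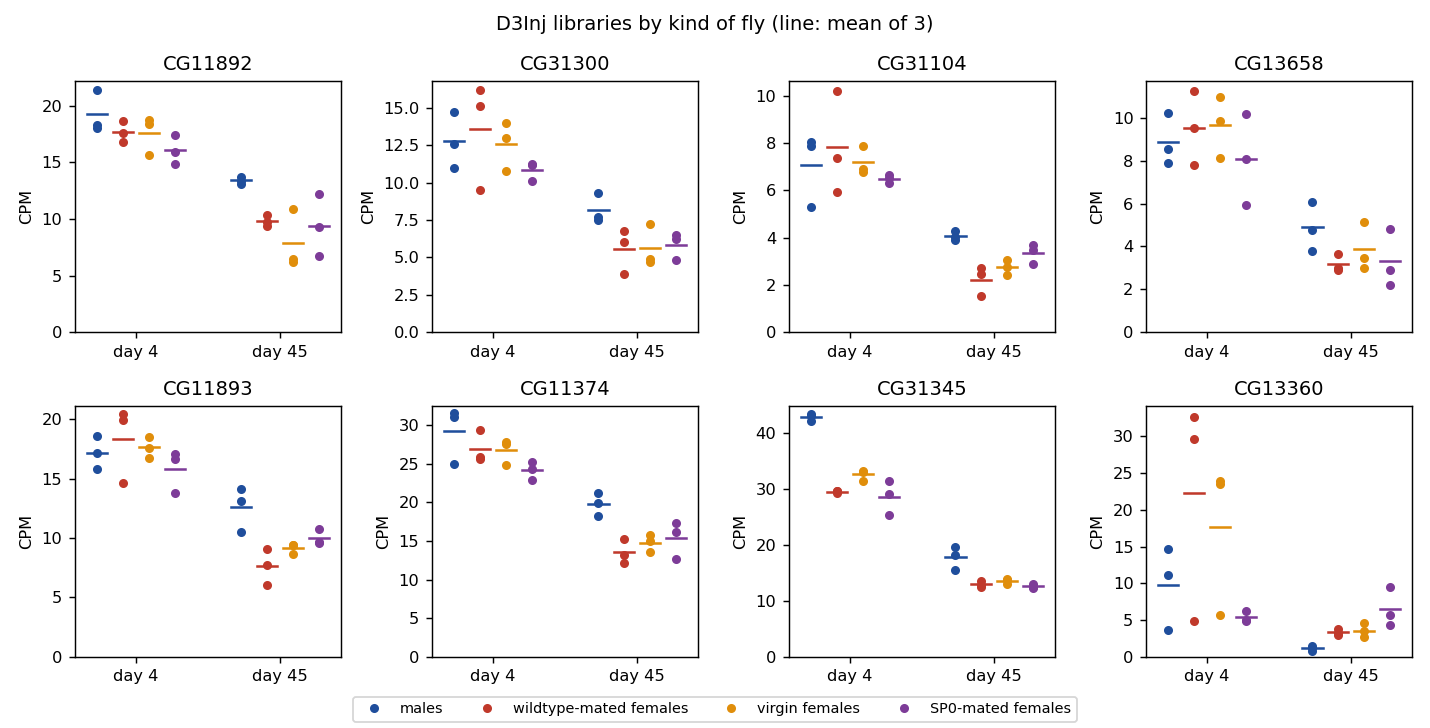
CPM in the D3Inj libraries on day 4 and day 45 for the 5 genes of the 3R stretch and for CG11374, CG31345 and CG13360. Each point is 1 library coloured by kind of fly and each line is a mean of 3; on day 45 the male points of CG11892, CG31300, CG31104, CG11374 and CG31345 lie above every female point, and those of CG13360 below.

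The other 2 Dro-named members lie elsewhere. CG5644 (Dro42-0) is on 3L, with a mean of 24.4 CPM in sham flies on day 4 and 13.1 CPM on day 45. In D3Inj flies it was lower with age in each kind, from -1.24 (SE 0.12) in males to -0.87 (SE 0.11) in virgin females. It overlaps Srp68, a subunit of the signal recognition particle on the opposite strand, which was not called with age (log2 change -0.04, SE 0.03). CG13360 (Dro30-0) is on X, and it had the largest sham ratio of all members, a mean log2 ratio of -2.05 over the 4 kinds.

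CG13360 was among the members whose day 4 level differed strongly between libraries of the same group, together with CG9512 and CG9812. CG9512 lies on X beside fiz and CG9514 in a cluster of genes for GMC oxidoreductases, flavin enzymes that include glucose dehydrogenase. In sham day 4 libraries CG9512 was at 58.1, 228.6 and 170.8 CPM in males (replicates 1, 2 and 3), 57.8, 256.1 and 159.6 CPM in wildtype-mated females, 45.1, 177.4 and 179.5 CPM in virgin females and 66.9, 63.3 and 61.1 CPM in SP0-mated females. In D3Inj day 4 libraries it was at 67.4, 171.3 and 215.6 CPM in males, 257.4, 54.2 and 213.2 CPM in wildtype-mated females, 67.6, 237.0 and 198.5 CPM in virgin females and 54.2, 56.4 and 50.4 CPM in SP0-mated females. The 24 libraries thus fell into 12 between 45.1 and 67.6 CPM and 12 between 159.6 and 257.4 CPM, with none in between. The low ones were all 6 SP0-mated libraries and 1 library of each other day 4 group. On day 45 all 24 libraries were between 22.7 and 56.3 CPM.

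The same 12 libraries were the lowest 12 for CG13360, CG9812, CG6329 and CG11893, and 11 of them were among the lowest 12 for CG12814 and for CG11374. CG13360 was at 2.60 to 7.96 CPM in them and at 9.93 to 38.2 CPM in the other 12 day 4 libraries, and CG9812, a 2R gene whose product has no role given here, was at 3.49 to 6.41 and 6.82 to 17.9 CPM. CG6329, the most abundant member, was at 1112 to 1251 and 1285 to 1449 CPM, a far smaller spread. For the other members the number shared of the 12 was 10 for CG31808 and CG31300, 9 for CG7582 and CG11892, and 8 for CG31104, CG31345 and CG8861. It was 7 for CG13658, 6 for CG31817 and CG14340, and 4 for CG5644. Over the 24 day 4 libraries the genes most like CG9512 among 7727 others past the level of 5 CPM, by Pearson's r of log2 CPM, were Cat (catalase), CG1213 and Cyp6d5 (a cytochrome P450) at 0.96, 0.94 and 0.94, and the Dro-named CG10553 and CG10560, below that level, had 0.96 and 0.94. The libraries share depth and handling, so these r values are a description. Column totals in the low 12 ran from 21495740 to 48426176 and in the high 12 from 25719255 to 46315783. The 4 day 4 libraries with high sums of gut enzyme genes (1285 to 1760 CPM, against 86.8 CPM or less in the other 20) were all among the high 12, and the other 8 of those had sums of 12.9 to 86.8 CPM. What set the libraries apart was not tested.

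**Figure D4:**
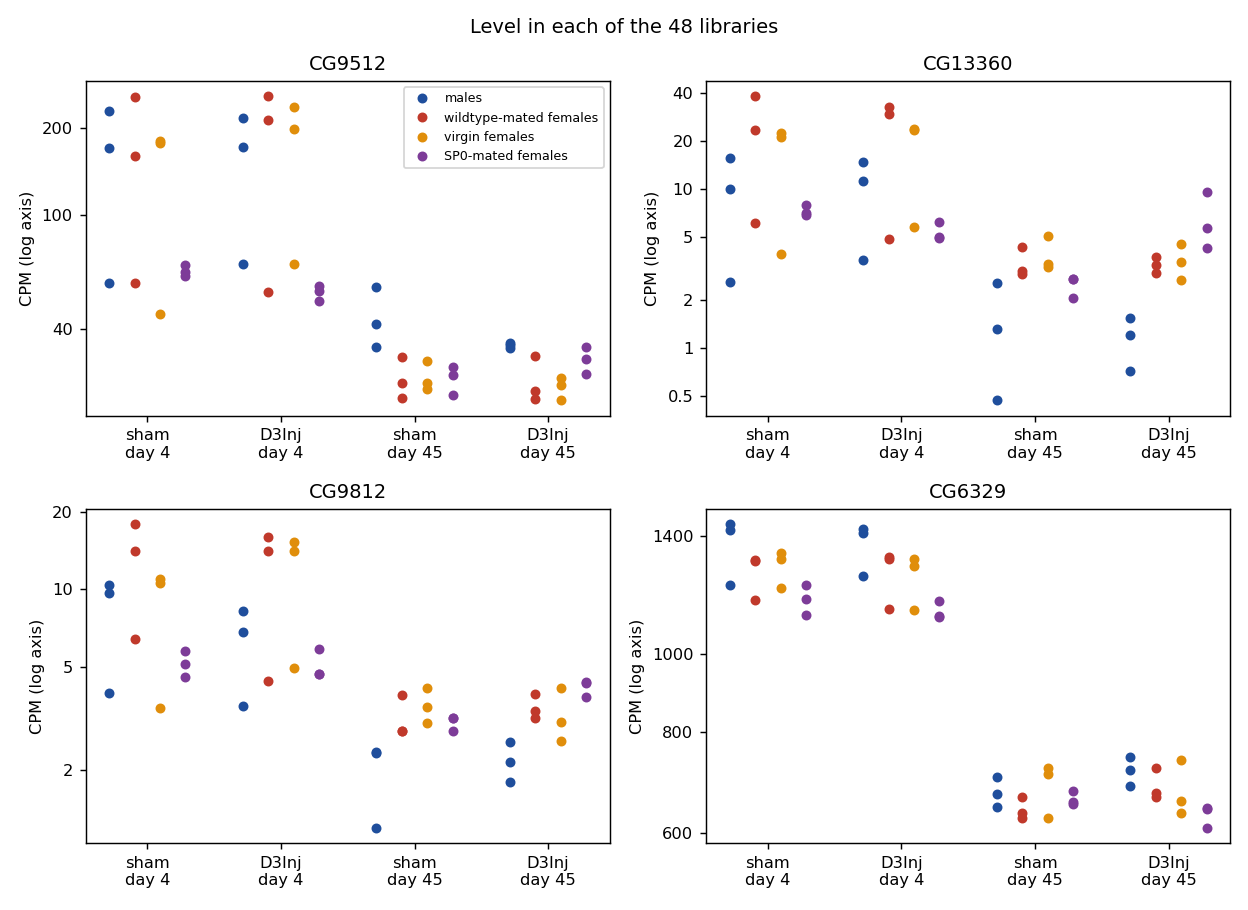
CPM on log axes in every library for CG9512, CG13360, CG9812 and CG6329, by treatment and day, with each kind of fly in its own colour (3 points per group). In CG9512 1 day 4 library of each male, wildtype-mated and virgin group and all SP0-mated day 4 libraries lie at 45.1 to 67.6 CPM, below the others at 159.6 to 257.4 CPM, while in CG6329 both days stand clearly apart in all groups.

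The fitted age changes of these genes carry this spread. In D3Inj males, wildtype-mated females and virgin females CG9512 was lower with age by log2 changes of -2.26 (SE 0.48), -2.81 (SE 0.49) and -2.84 (SE 0.50), and CG13360 by -3.21 (SE 0.68), -2.83 (SE 0.63) and -2.40 (SE 0.62). In SP0-mated D3Inj females CG9512 was at 54.2, 56.4 and 50.4 CPM on day 4 and at 34.8, 31.5 and 28.0 CPM on day 45. These do not overlap, but with the spread estimated over all groups the change of -0.85 (SE 0.48) was not called (adjusted p = 0.18 by edgeR). CG13360 was at 4.93, 6.17 and 4.98 CPM on day 4 and at 9.51, 5.70 and 4.28 CPM on day 45 in the same flies, a log2 change of 0.20 (SE 0.62, adjusted p = 0.84). CG9812 and CG12814 were the other members not called there, at -0.36 (SE 0.41, adjusted p = 0.56) and -0.45 (SE 0.27, adjusted p = 0.20). Without the 12 high libraries, a choice made after seeing CG9512, edgeR called fewer members lower in males, wildtype-mated females and virgin females, and more in SP0-mated females. CG9512 was then among those called in SP0-mated females, and CG13360 and CG9812 were among those lost in wildtype-mated and virgin females. Each male, wildtype-mated and virgin day 4 group has 1 library in that fit, taken to vary like the others. The share of all features called in that fit is not given here, so the change in calls is not read as particular to the members. Without the 12 low libraries, all 18 were called in males, wildtype-mated and virgin females. The share of all features called in this second fit is not given here either. The libraries were split on CG9512, so keeping its high ones enlarges its fall and that of members with the same split.

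CG9512's neighbours did not share its change. CG9514, fiz and Flo2 (flotillin, antisense to CG9512) had D3Inj log2 changes of 0.03 (SE 0.06), 0.14 (SE 0.07) and 0.01 (SE 0.02), with adjusted p of 0.70, 0.073 and 0.69 by edgeR. The gene antisense to CG13360, tw, had a mean of 0.38 CPM in sham flies and was not called (0.50, SE 0.30).

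CG6329 on 2R, with 6 annotated transcripts and at most 465 coding bases, was the most abundant, with 1269 CPM in sham day 4 flies and 666 CPM on day 45, and 323.4 CPM per kilobase of exon on day 4. In D3Inj flies it was lower in each kind, from -1.08 (SE 0.07) in males to -0.92 (SE 0.07) in SP0-mated females, and the ranges of the days, 1112 to 1428 and 608 to 745 CPM, did not meet. CG8861, CG31808, CG9512, CG7582 and CG31345 were the next most abundant, with sham day 4 levels of 192.3, 179.2, 127.0, 57.3 and 34.1 CPM.

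CG31345 on 3R, with 639 coding bases and the older name CBP9, showed the clearest sex difference of the set. On day 4 the D3Inj males were at 43.4, 43.1 and 42.3 CPM and the 9 female libraries at 25.4 to 33.3 CPM with a median of 29.6. On day 45 the males were at 19.6, 18.3 and 15.6 CPM and the females at 12.3 to 13.9 CPM. The log2 difference of males minus females was 0.54 (SE 0.05, adjusted p = 1.23e-09) on day 4 and 0.44 (SE 0.06, adjusted p = 3.26e-07) on day 45 by edgeR, and both were called whichever library was left out. Sham libraries, not tested, had the same order, with males at 41.6, 43.2 and 42.8 CPM and females at 28.4 to 35.0 CPM on day 4. Its fall with age was alike in the 4 kinds of D3Inj fly, from -1.41 (SE 0.07) in males to -1.26 (SE 0.07) in SP0-mated females.

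Of the 18 members, 2 were higher in D3Inj males on day 4 and none lower, where 5.65% and 3.64% of all features were (9.28% either way). CG6329 was the other (log2 difference 0.21, SE 0.06, adjusted p = 0.014), but it was lost without male replicate 2 or replicate 3. On day 45, 6 members were higher in males and 1 lower, where 3.93% and 5.45% of all features were (9.38% either way). Besides the 4 genes of the 3R stretch and CG31345, these were CG11374 and CG13360. CG11374, a galectin gene that lies 136 bases from galectin on 2L, was at 18.3 to 21.3 CPM in the 3 male libraries and at 12.2 to 17.4 CPM in females, with no overlap (log2 difference 0.43, SE 0.10, adjusted p = 0.00154), and stayed called whichever library was left out. CG13360 was at 1.53, 1.21 and 0.72 CPM in males and at 2.67 to 9.51 CPM in females, again with no overlap, for a difference of -1.89 (SE 0.61, adjusted p = 0.0408). That call was lost without any of 6 libraries, namely each male library, F replicate 2, V replicate 2 and SP replicate 1. CG9812 and CG12814 were not called, but their male libraries also lay below all female ones on day 45. CG9812 was at 1.79 to 2.56 CPM in males and 2.59 to 4.39 CPM in females. CG12814 was at 2.51 to 3.44 and 3.50 to 6.42 CPM. The share of all genes whose sexes did not overlap is not given here. No member differed by sex in its age change at an adjusted p under 0.05, where 0.32% of all features did. An unadjusted p under 0.05 was found for 4 members and for 1519 of 15640 features.

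No member was called for mating. In D3Inj females 0 of 18 were called by edgeR in virgin against wildtype-mated flies or in SP0-mated against wildtype-mated flies on either day, where 0% of all features were called in 3 of these tests and 0.00639% in SP0-mated against wildtype-mated flies on day 4. DESeq2 called 0 as well. At an unadjusted p under 0.05 stood 449 and 1171 of all 15640 features for virgin flies on days 4 and 45. For SP0-mated flies 1101 and 1034 did. The counts of members were 0 and 0 for virgin flies, and 6 and 2 for SP0-mated flies. The 3 lowest were CG13360 (log2 difference -2.08, SE 0.61), CG9512 (-1.73, SE 0.47) and CG9812 (-1.20, SE 0.40) on day 4, with adjusted p of 0.37, 0.29 and 0.45, in which the low wildtype-mated library, replicate 2, counts against the high replicates 1 and 3. Without that library CG13360 and CG9512 were called. All SP0-mated day 4 libraries are low in CG9512 and the wildtype-mated ones then left are high. Mating and the split of the libraries cannot be told apart there. Age changes of virgin or SP0-mated flies, set against wildtype-mated flies in a comparison added after the values were seen, differed in 0 of 18 members, and 0% of all features, in both tests, with 0 and 6 members at an unadjusted p under 0.05. Of all 15640 features 710 and 1022 were at that unadjusted level.

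No member was called for head injury. The sham side of these comparisons holds the libraries that chose the members, so neither the direction nor the size of the differences is read. Averaged over the 4 kinds, 0 of 18 members were called on day 4, where 0.0767% of all features were, and 0 of 18 on day 45, where 0% were. DESeq2 called 0 too. On both days 0 members had an unadjusted p under 0.05, where 522 and 747 of 15640 features had. In single kinds 0 were called in all 8 tests by both tools, where 0% to 0.0895% of features were. At most 1 member per test had an unadjusted p under 0.05, where 407 to 1195 of 15640 features had.

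The other members are described by place and neighbours. CG31808 on 2L was once annotated as noncoding under the name CR31808 and has a coding part of only 168 of 1929 exon bases. It overlaps Cyt-c-d on the opposite strand, which was at 0.45 CPM, and lies 3736 bases from Cyt-c-p, the cytochrome c of the respiratory chain, which met the rule's fall as well. In D3Inj flies averaged over the 4 kinds CG31808 was lower by -1.08, Cyt-c-p by -0.74 (SE 0.03) and CR43670, on the other side, by -0.79 (SE 0.04). CG11374 lies between galectin (-0.41, SE 0.03) and net, a transcription factor gene of wing vein patterning (-1.11, SE 0.08), and itself changed by -0.87. CG31817, with the longest coding part at 7059 bases, lies 103 bases from CG42266, which was lower too (-1.12, SE 0.14) but was left out by the rule for its 2.33 CPM. CG7582 lies 224 bases from Gycalpha99B, a soluble guanylyl cyclase subunit, which was lower (-0.68, SE 0.02), while the condensin gene Cap-D2, antisense to CG7582, was higher (0.28, SE 0.09). CG12814 lies between Best1, a bestrophin chloride channel gene (-0.34, SE 0.04), and Syn, which codes for synapsin (-0.36, SE 0.02), and was itself lower by -0.88. CG8861 overlaps HP1e on the opposite strand, which was lower as well (-0.63, SE 0.09) from a level of 4.29 CPM, against 154.3 CPM for CG8861. CG14340 lies 515 bases from Pino, which was higher (0.15, SE 0.04). Neighbours were listed after the members were known. 7 members overlap a gene on the opposite strand, and since the strand setting of the counting is not given in the sources used here, reads of such pairs cannot be told apart.

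Their median coding length was 1254 bases, against 1298 for the other 2266 CG-numbered genes past the level of 5 CPM and their largest transcripts had a median of 3 exons against 4. By chromosome arm 9 were on 3R, 4 on 2L, 2 on 2R, 2 on X and 1 on 3L. Of the other genes 23.0% were on 3R, and 5 of the 9 members there are the neighbours described above.

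Near the thresholds the choice was narrow. The least negative sham ratio was -0.62 for CG31300, -0.63 for CG11893 and -0.66 for CG8861 just inside, and -0.58 for CG9394, -0.56 for CG17193 and -0.54 for CG17698 just outside. By level CG31104, CG12814 and CG9812 were inside at 5.52, 5.66 and 5.77 CPM, and CG10553, CG44405 and CG42266 were outside at 3.50, 3.04 and 2.33 CPM. The same rule run on the D3Inj libraries took 17 genes, of which 12 were members.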

How the data were processed

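Brain RNA was sequenced in 48 libraries (16 groups of 3, 40 flies each). The authors mapped reads with RNA STAR to dm6 and deposited featureCounts tables of raw counts per feature of the Ensembl annotation. For these tools no versions, strand setting or Ensembl release were found in the labels or the methods. Libraries were stranded and depleted of ribosomal RNA. Columns were assigned by header, and 0 columns were left out. The members and gene lists were chosen with earlier results of these data known.

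CPM is the count over the column total. All 48 libraries were fitted together in edgeR 4.0.16 (R 4.3.3) with 1 coefficient per group, TMM factors (0.933 to 1.06) and filterByExpr, which kept 15640 features (12739 genes, 18 of 18 members). Contrasts were tested by the quasi-likelihood F test with Benjamini-Hochberg adjustment over all features and called at an adjusted p under 0.05. The SE is the size of the log2 change over the square root of F. The common biological coefficient of variation was 0.13. The code was tested on simulated counts. The authors describe the 3 libraries of a group as independent cohorts. Gene symbols, positions (dm6) and older names came from the Ensembl and RefSeq (release 6) annotation. All members and the nearest genes outside each threshold were named. The planned protein comparison and promoter search were not run here.

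Alternatives were RLE scaling, no filter, DESeq2 1.42.0 (Wald), fits on the libraries of a contrast alone, a replicate block, leaving out 4 libraries high in gut genes, leaving out each library, and samples linked by the record. Replicate numbers were checked for pairing by the correlation of deviations from group means: it was over 0.1 for every pair in 2 of 18 pairs of groups (virgin D3Inj and sham flies on day 4 and on day 45) and ran from -0.54 to 0.40, so numbers were taken to pair libraries in those 2 alone.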

Additional observations from a re-analysis of the deposited data

How the results depend on the processing

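Across RLE scaling, no filter, DESeq2, fits on a contrast's libraries alone and the replicate block, each of the 24 counts of called members stayed within 1.5 times its value. With the replicate block the counts lower with age were 18, 18, 18 and 14 in males, wildtype-mated, virgin and SP0-mated flies, and it changed no call in the 2 paired comparisons of virgin flies. Leaving out the 4 libraries high in gut genes, or the 12 day 4 libraries high in CG9512 (added after the values were seen), changed 1 count by over 1.5 times, members differing by sex on day 4, from 2 to 1 each. Without the 12 libraries fewer members were called lower with age in males, wildtype-mated and virgin flies, whose day 4 groups then hold 1 library each, and more in SP0-mated flies. Samples linked by the record, which mixes days within groups, gave 0 in the 5 age counts and in both sex counts.

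Leaving out 1 library gave 18 to 18 members lower with age in males, in wildtype-mated females and in the mean of 4 kinds, 17 to 18 in virgin females and 14 to 14 in SP0-mated females. It gave 1 to 3 members differing by sex on day 4, 2 to 9 on day 45 (2 without male replicate 1 or 2), 0 to 2 in SP0-mated against wildtype-mated flies on day 4 (2 without F replicate 2), and 0 to 0 in the other comparisons. Of 27 values of single called genes, 27 stayed called under DESeq2, RLE and the replicate block, and 26 without the gut libraries. None reversed.

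The number of members was 11 with a level of 10 CPM and 5 with a log2 threshold of -1, and it stayed within 1.5 times of 18 with a level of 1 CPM (27), TMM library sizes (26), a pseudocount of 0.1 (18), D3Inj libraries (17) and without a replicate number (18 to 19). With the D3Inj libraries CG11374, CG11892, CG11893, CG12814, CG13360 and CG9812 were lost and other genes came in. Without replicate 2 CG9812 was lost, and without replicate 3 CG11892 and CG11893 of the 3R stretch. Errors differed between members and did not follow level alone. In SP0-mated flies the SE was 0.27 for CG12814, 0.20 for CG31104, 0.62 for CG13360 and 0.07 for CG6329. Their mean sham levels were 5.66, 5.52, 8.31 and 967.5 CPM.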

Other observations

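Among genes past the level of 5 CPM, the 10 whose day 4 level was most like that of CG9512 over the 24 day 4 libraries were Cat, CG1213, Cyp6d5, Vha16-1, Est-6, CG13360, CG9812, Galphao, Cyp4e2 and Mipp1, with r from 0.96 to 0.90. Cat was at 49.1 to 60.3 CPM in the 12 libraries lowest in CG9512 and at 79.8 to 171.5 CPM in the other 12, Cyp6d5 at 12.1 to 16.9 and 18.4 to 43.3 CPM, Cyp4e2 at 5.13 to 9.78 and 10.1 to 22.0 CPM, and Est-6 at 13.2 to 24.2 and 29.7 to 90.1 CPM. For each of these 4 the lowest 12 libraries were the same 12, and they were picked after their values were seen. The clock gene tim did not follow: 5 of its lowest 12 day 4 libraries were among them. On day 45 Cat was at 55.6 to 84.1 CPM and Est-6 at 10.8 to 44.3 CPM, reaching above their levels in the low 12 day 4 libraries. CG9512, at 22.7 to 56.3 CPM on day 45, did not reach above its own range there, 45.1 to 67.6 CPM.

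Of the 3R run of Dro-named genes, CG10553 and CG10560 combined both patterns. They were lower with age in D3Inj males, wildtype-mated and virgin females. In D3Inj SP0-mated females neither was called (log2 change 0.05, SE 0.64, and 0.12, SE 0.63). In day 4 libraries they were at 1.53 to 3.16 and 1.28 to 2.67 CPM in the 12 libraries low in CG9512 and at 5.81 to 15.9 and 4.30 to 14.1 CPM in the others. In the 5 neighbouring members the day 4 ranges of the same libraries overlapped for CG11892, CG31300, CG31104 and CG13658, while those of CG11893 met without overlapping, at 13.8 to 17.1 and 17.1 to 20.9 CPM.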
